A study of Saccharomyces cerevisiae with 6 samples.

Results

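Trehalose and glycogen are the 2 storage carbohydrates of budding yeast, and the 10 genes described here encode enzymes, or subunits of enzymes, that make or break them down. They are TPS1, TPS2, TPS3, TSL1, NTH1, NTH2, ATH1, GSY1, GSY2 and GPH1, chosen by name but with earlier results of these data known. Each was read by 1 probe set on Affymetrix arrays, and together they are 10 of 5449 S. cerevisiae genes tested. The series holds 3 arrays labelled ypr045c∆ in BY4741 and 3 arrays labelled BY4741 wild type. All cells were growing exponentially in the rich medium YPD. The product of YPR045C, Thp3, is known for roles in transcription elongation and in the processing of mRNA. BY4741 is a haploid laboratory strain of mating type a known to carry mutations of HIS3, LEU2, MET17 and URA3, and both groups are labelled as this background. The labels name no clone. Since they also do not state whether replicates were separate cultures, the p-values here cover only array-to-array spread, part of which may be technical.

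Trehalose is made from UDP-glucose and glucose 6-phosphate by a complex of a synthase, a phosphatase and large regulatory subunits, and it is split by trehalases. Glycogen is extended by glycogen synthase from UDP-glucose and is shortened by glycogen phosphorylase. In yeast both stores are known to be low during rapid growth on glucose and to build up as glucose runs out or under stress, when the transcription factors Msn2 and Msn4 act on many of these genes. Enzyme activity in both pathways is also set by phosphorylation, which an mRNA array does not measure.

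Across genes, Pearson's r was 0.995 to 0.997 among the arrays labelled deletion, 0.996 among those labelled wild type and 0.981 to 0.985 between groups. THP3, the targeted gene, was not called lower under any setting. On the log2 scale it stood at 9.93, 9.82 and 9.10 in the arrays labelled deletion, against 9.51, 9.43 and 8.94 in the arrays labelled wild type (log2 difference 0.33 ± 0.25, SE; limma adjusted p = 0.39). It was called higher under 3 of 18 alternatives, the replicate block and those that leave out the arrays numbered 3 or fit them as a batch (lowest adjusted p = 0.015). The level therefore goes against the label, unless the probe set lies outside the deleted part, which was not tested. Each direction below therefore holds for the groups as labelled. Of 316 chromosome X genes 313 had a negative log2 difference and 295 were called lower in the arrays labelled deletion, with a median of -0.79. None of the 10 genes lies on that chromosome, but its shift separates the same groups as the labels. Differences that go with this shift and differences that go with the deletion therefore cannot be told apart, in these genes or others. The mating type a genes MFA1, MFA2, STE2, BAR1, AGA2 and STE6 stood between 11.35 and 13.79 in both groups. Of the genes of the other mating type, MF(ALPHA)1 stood at 6.66 and 6.54 in the arrays labelled deletion and wild type, MF(ALPHA)2 at 7.52 and 7.16, STE3 at 7.10 and 6.65, and SAG1, on chromosome X, at 9.16 and 10.39. The background limit, taken from S. pombe probe sets, was 6.48. Of the marker genes of BY4741, URA3 and MET17 lay below it in both groups, and HIS3, whose allele is known to lack only part of the gene, stood at 11.60 and 11.55. LEU2, known as deleted in this strain, stood above the limit at 8.52 and 8.79, which goes against that deletion; the cause was not tested.

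Of the 10 genes, the glycogen synthase gene GSY1 was higher in the arrays labelled deletion, and the neutral trehalase gene NTH2 and the glycogen phosphorylase gene GPH1 were lower. The other 7 did not pass the threshold, an adjusted p of 0.05 over all 5449 genes by limma with Benjamini-Hochberg adjustment. The share of called genes, 3 of 10, stands beside 21.7% of all genes called in either direction, 11.6% higher and 10.2% lower. Outside chromosome X these shares were 12.3% higher and 5.05% lower. That split depends on the normalization: with chromosome X genes left out before it, 378 of 5133 genes were called higher and 340 lower. A count of 1 higher and 2 lower among 10 genes is not read as particular to them. In RNA from whole cultures, less mRNA in every cell and fewer cells that express a gene cannot be told apart. Their median log2 difference was -0.07, where that of all genes was 0.03, and the differences ran from -0.43 to 0.56. Over all genes 630 were called higher and 554 lower; this split was 479 and 635 without normalization and 258 and 858 with median centring. Within the 10 genes it stayed at 1 higher and 2 lower without normalization and was 1 and 3 with median centring, where ATH1 joined the falls. With both arrays numbered 3 left out, 1 of the 10 was called, NTH2.

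**Figure D1:**
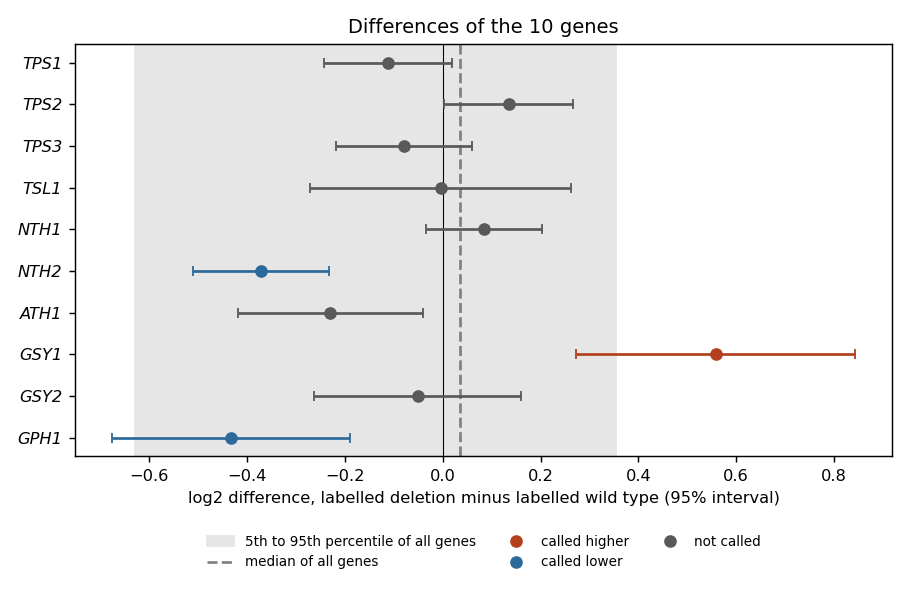
Log2 difference of each of the 10 genes (arrays labelled deletion minus arrays labelled wild type) with its 95% interval, 3 arrays per group. GSY1 lies at 0.56, right of the band that holds the 5th to 95th percentile of all genes, while NTH2 at -0.37 and GPH1 at -0.43 lie inside that band. The band includes 316 chromosome X genes, with a median of -0.79, which extend its lower side. None of the 10 genes lies on that chromosome, and no band without it was drawn.

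Values below are log2(normalized intensity + 16), on which a difference of 1 is a doubling of the offset intensity. Levels of different probe sets are not compared with each other. All 10 genes lay above the background limit in both groups, the lowest group mean being 9.31.

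TPS1 encodes trehalose 6-phosphate synthase, the first enzyme of trehalose synthesis. It stood at 12.28, 12.42 and 12.44 in the arrays labelled deletion and at 12.50, 12.45 and 12.52 in those labelled wild type. The groups did not overlap, but the log2 difference of -0.11 ± 0.05 (SE) missed the threshold (limma adjusted p = 0.19), with a 95% interval from -0.24 to 0.02. TPS2 encodes the phosphatase that completes trehalose synthesis. It stood at 11.86, 12.00 and 11.86 in the arrays labelled deletion and at 11.73, 11.82 and 11.77 in those labelled wild type. Here, too, the groups lay apart, in the opposite direction to TPS1. The log2 difference was 0.13 ± 0.06 (limma adjusted p = 0.13), and it was -0.01 with median centring. Groups of arrays did not overlap for 5 of the 10 genes, TPS1, TPS2, NTH2, GSY1 and GPH1, against 41.2% of all genes.

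TPS3 and TSL1 encode the related large regulatory subunits of the trehalose synthase complex. TPS3 stood at 11.52, 11.63 and 11.56 in the arrays labelled deletion and at 11.55, 11.71 and 11.69 in those labelled wild type. TSL1 stood at 11.81, 12.00 and 11.75 in the arrays labelled deletion and at 11.69, 12.08 and 11.81 in those labelled wild type. The groups overlapped for both genes. The log2 difference was -0.08 ± 0.06 for TPS3 (limma adjusted p = 0.38) and -0.0046 ± 0.11 for TSL1 (adjusted p = 0.98). Their 95% intervals ran from -0.22 to 0.06 and from -0.27 to 0.26.

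**Figure D2:**
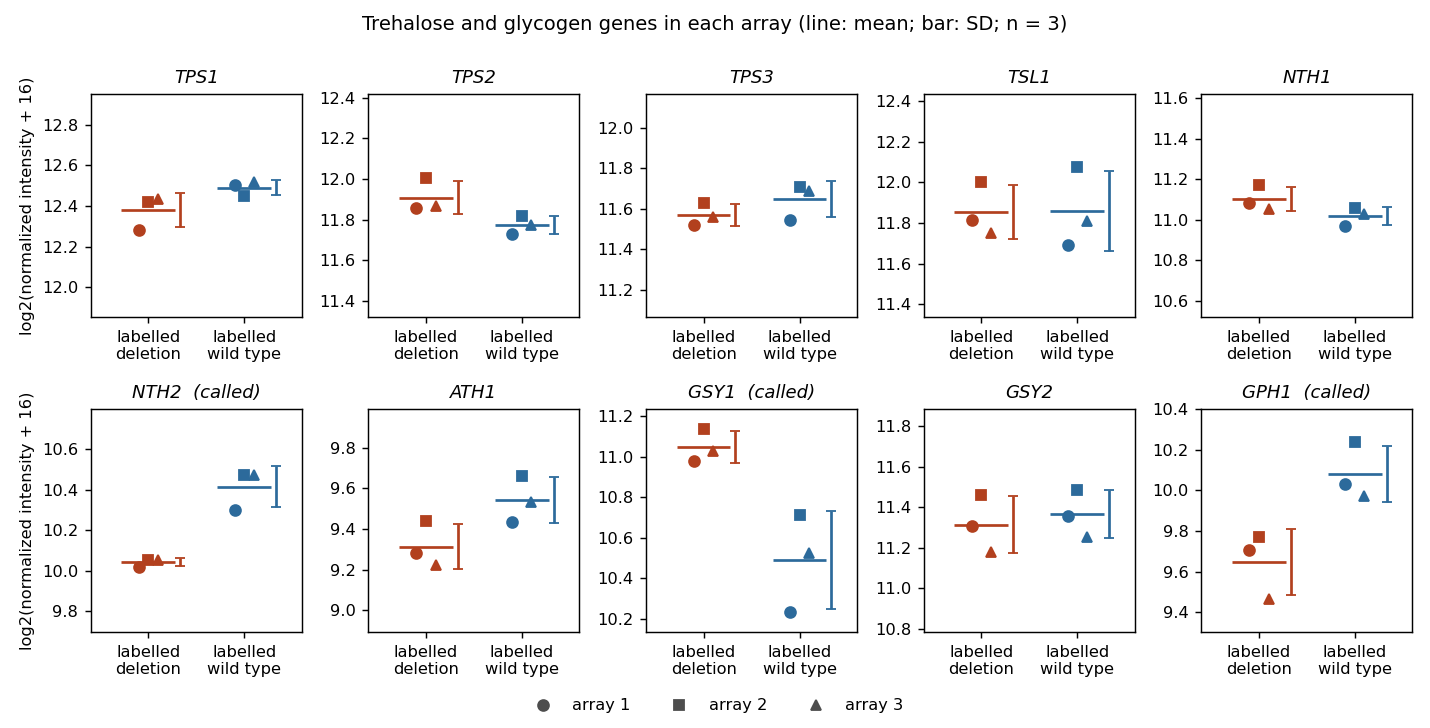
Log2(normalized intensity + 16) of the 10 genes in each array, with the arrays labelled deletion left of those labelled wild type; every panel spans the same height, lines are group means and bars are SDs (n = 3). The groups lie clearly apart for NTH2, GSY1 and GPH1, and the square of array 2 is the highest point in both groups for 8 of the 10 genes.

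Among the trehalases, NTH2 had the smallest p of the 10 genes. The neutral trehalases NTH1 and NTH2 are paralogs that split trehalose inside the cell, and Nth1 is known to provide most of this activity. Deposited intensities of NTH2 were 1013.19, 1043.22 and 1021.89 in arrays labelled deletion, against 1295.38, 1429.48 and 1416.58 in those labelled wild type. After normalization it stood at 10.02, 10.05 and 10.06 in the arrays labelled deletion and at 10.30, 10.47 and 10.47 in those labelled wild type. All 3 arrays labelled deletion lay below all 3 labelled wild type. NTH2 fell by 0.37 on the log2 scale (SE 0.06; 95% interval -0.51 to -0.23; limma adjusted p = 0.0046), to 0.773 times its level in wild type. The call held under each of 18 alternatives, with adjusted p between 2.32e-05 and 0.049.

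NTH1 stood at 11.08, 11.17 and 11.05 in the arrays labelled deletion and at 10.97, 11.06 and 11.03 in those labelled wild type. The groups overlapped. The log2 difference was 0.08 ± 0.05 (limma adjusted p = 0.27), with a 95% interval from -0.03 to 0.20, and it was -0.06 with median centring. ATH1 encodes the acid trehalase, which is needed for growth on external trehalose. It stood at 9.28, 9.44 and 9.22 in the arrays labelled deletion and at 9.44, 9.66 and 9.53 in those labelled wild type. The highest array labelled deletion and the lowest labelled wild type were nearly level. The log2 difference of -0.23 ± 0.08 missed the threshold (limma adjusted p = 0.086), but passed it with median centring (adjusted p = 0.0050).

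GSY1 and GSY2 encode the paralogous glycogen synthases, of which Gsy2 is known as the main form as cells approach stationary phase. Deposited intensities of GSY1 were 1973.64, 2201.52 and 2022.23 in arrays labelled deletion, against 1228.98, 1679.30 and 1459.90 in those labelled wild type. After normalization it stood at 10.98, 11.14 and 11.03 in the arrays labelled deletion and at 10.23, 10.71 and 10.52 in those labelled wild type. The groups did not overlap, and the arrays labelled wild type were the more spread, with an SD of 0.24 where the arrays labelled deletion had 0.08. GSY1 rose 1.47-fold (log2 difference 0.56 ± 0.12; 95% interval of the fold 1.21 to 1.79; limma adjusted p = 0.017). Of all differences between groups, 98.2% ranked below it. The call was lost when wild_type replicate 3 was left out (adjusted p = 0.05005), as when ypr045c_deletion replicate 2 (0.060) or both arrays numbered 3 (0.11) were, with log2 differences of 0.58, 0.52 and 0.58. GSY2 stood at 11.31, 11.46 and 11.18 in the arrays labelled deletion and at 11.36, 11.49 and 11.25 in those labelled wild type. These ranges overlapped almost fully, and the log2 difference was -0.05 ± 0.09 (limma adjusted p = 0.72; 95% interval -0.26 to 0.16).

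GPH1 encodes glycogen phosphorylase, which releases glucose 1-phosphate from glycogen. Deposited intensities of GPH1 were 800.55, 860.80 and 679.05 in arrays labelled deletion, against 1061.35, 1196.18 and 986.68 in those labelled wild type. After normalization it stood at 9.70, 9.77 and 9.46 in the arrays labelled deletion and at 10.03, 10.24 and 9.97 in those labelled wild type. Every array labelled deletion lay below every array labelled wild type. GPH1 fell by 0.43 on the log2 scale (SE 0.10; 95% interval -0.68 to -0.19; limma adjusted p = 0.025), to 0.741 times its level in wild type. The call was lost when wild_type replicate 1 was left out (adjusted p = 0.057), as when wild_type replicate 2 (0.068), ypr045c_deletion replicate 1 (0.057) or both arrays numbered 3 (0.051) were. In these settings the log2 difference was -0.46, -0.35, -0.46 and -0.40.

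The paralogs of each pair were then compared within arrays, to ask whether their mRNAs moved unequally. The level of NTH1 minus that of NTH2 was 1.06, 1.12 and 1.00 in the arrays labelled deletion, against 0.67, 0.58 and 0.56 in those labelled wild type. It was thus 0.46 higher in the arrays labelled deletion, with no overlap. GSY1 minus GSY2 was -0.33, -0.32 and -0.15 in the arrays labelled deletion, against -1.12, -0.77 and -0.73 in those labelled wild type, a change of 0.61 with no overlap. For both pairs the exact two-sided permutation test gave p = 0.1, the smallest that 3 against 3 arrays allow, and 0.15 after Benjamini-Hochberg adjustment over the 3 pairs. TPS3 minus TSL1 changed by -0.07, within the spread between arrays (exact permutation p = 0.5). Over 14 alternatives, NTH1 minus NTH2 changed by 0.43 to 0.49, GSY1 minus GSY2 by 0.49 to 0.68 and TPS3 minus TSL1 by -0.15 to -0.03. Not all of these could differ: averaged probe sets must give the value as reported, and median centring that without normalization. Paralogous mRNAs can share probe matches. Each of these genes was read by a probe set of its own, and no probe sequence was used here, so cross-hybridization was not tested.

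**Figure D3:**
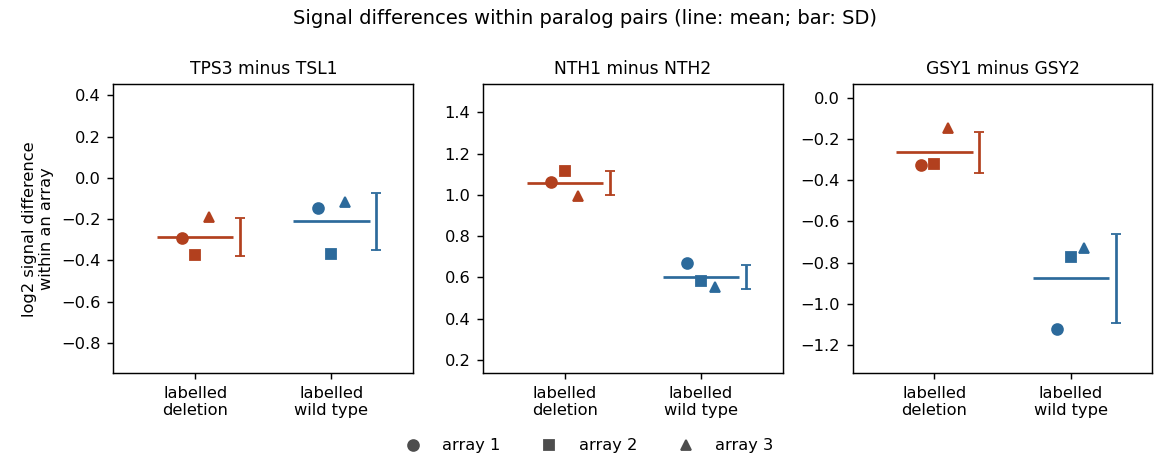
Difference in log2(normalized intensity + 16) between the 2 genes of each paralog pair within each array, arrays labelled deletion left of those labelled wild type; lines are means and bars SDs (n = 3). The groups lie apart for NTH1 minus NTH2 and for GSY1 minus GSY2 and overlap for TPS3 minus TSL1; only the shift between groups can be read, since the height also depends on each probe set.

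The 10 genes also varied together between arrays of the same group. The array numbered 2 was the highest of its group for 8 of the 10 genes in the arrays labelled deletion and for the same 8 in those labelled wild type, the exceptions being TPS1 and NTH2. Over all genes, 10.6% had array 2 highest in both groups. In the lists examined below, GLC3, UGP1, PGM2, PIG2, HSP42 and HSP104, among others, showed it as well. GLG1, GDB1 and SSA3, among others, did not. The pattern is therefore not read as particular to the 10 genes. It was noticed after the values were seen and is given as a description. The numbers do not mark shared cultures or days in the labels. The range over 3 arrays was widest for GPH1 in the arrays labelled deletion, at 0.31, and for GSY1 in those labelled wild type, at 0.48. The median range of the 10 genes was 0.15 and 0.20 in the arrays labelled deletion and wild type, and that of all genes was 0.12 and 0.14.

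Most of the 10 genes are also long. From 1488 bp for TPS1 to 3636 bp for ATH1, 9 of the 10 are at least 1899 bp long and so fall among the longest 25% of genes. Of 1275 such long genes outside chromosome X, 7.84% were called higher and 6.51% lower, with a median log2 difference of 0.00. The part of length in the values above was not tested.

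The enzymes and regulators around these genes were examined next, in 6 lists written from general knowledge. Of 44 measured genes 4 rose and 6 fell in arrays labelled deletion, and 2 of the 6 that fell lie on chromosome X. The share of 22.7% called is near the 21.7% of all genes.

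In the supply of sugar phosphates and UDP-glucose, 1 of 6 genes was called. PGM2, the main phosphoglucomutase, which links glucose 6-phosphate to glucose 1-phosphate, stood at 10.67, 10.75 and 10.71 in the arrays labelled deletion and at 10.25, 10.59 and 10.26 in those labelled wild type. It rose by 0.35 ± 0.10 on the log2 scale (limma adjusted p = 0.044), close to the threshold, and was called under 9 of 18 alternatives (adjusted p up to 0.21). The call was lost without normalization, with median centring, without both arrays numbered 3, without chromosome X genes and without any single array other than wild_type replicate 2. UGP1, which makes the UDP-glucose that both pathways use, differed by -0.05 ± 0.10 (adjusted p = 0.76).

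Of 5 genes for glycogen initiation, branching and debranching, 2 fell. GLG2, a glycogenin that primes glycogen, fell by 0.70 (SE 0.04; limma adjusted p = 3.80e-05). It lies on chromosome X, whose median was -0.79, while its paralog GLG1 on chromosome XI differed by -0.01 ± 0.08 (adjusted p = 0.93). SGA1, a glucoamylase known for glycogen breakdown in sporulation, stood at 7.72, 7.84 and 7.97 in the arrays labelled deletion and at 8.47, 8.49 and 8.65 in those labelled wild type. It fell by 0.70 (SE 0.08; adjusted p = 0.0011), and was called under each of 18 alternatives. The branching enzyme gene GLC3 and the debranching enzyme gene GDB1 differed by 0.07 ± 0.08 and -0.06 ± 0.07, and neither was called.

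Glycogen synthase is activated by the phosphatase Glc7 with its targeting subunits, and 1 of these 6 genes was called. PIG2, a putative targeting subunit, stood at 9.37, 9.48 and 9.35 in the arrays labelled deletion and at 8.87, 9.10 and 9.08 in those labelled wild type. It rose by 0.38 ± 0.07 on the log2 scale (limma adjusted p = 0.011). Of 8 genes for kinases that act on glycogen synthase or its substrate supply, and their cyclins, 1 rose and 1 fell. The Pho85 cyclin gene PCL6 rose by 0.27 ± 0.05 (adjusted p = 0.0088; 0.38 with median centring). The PAS kinase gene PSK1 fell by 0.18 (SE 0.04; adjusted p = 0.029), and was called under 13 of 18 alternatives, not without any of the wild type arrays or without ypr045c_deletion replicate 1 or 2 (adjusted p up to 0.11). PCL8 and PCL10, the cyclins known to direct Pho85 to Gsy2, differed by -0.02 ± 0.08 and 0.11 ± 0.07 and were not called.

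In the cAMP and protein kinase A pathway, which restrains these stores during growth on glucose, 1 of 14 genes rose and 3 fell. RAS2, a GTPase that activates adenylate cyclase, stood at 12.29, 12.30 and 12.30 in the arrays labelled deletion and at 11.82, 11.93 and 11.90 in those labelled wild type, a rise of 0.41 ± 0.04 (limma adjusted p = 0.00068). The adenylate cyclase gene CYR1, on chromosome X, fell by 0.96 (SE 0.06; adjusted p = 4.52e-05). PDE1, the low-affinity cAMP phosphodiesterase, fell by 0.34 (SE 0.05; adjusted p = 0.0021). MSN4, on chromosome XI, stood at 9.84, 10.01 and 9.78 in the arrays labelled deletion and at 10.90, 10.92 and 10.68 in those labelled wild type. It fell by 0.95 (SE 0.09; adjusted p = 0.00037), while its paralog MSN2 differed by -0.10 ± 0.04 (adjusted p = 0.16). The calls of RAS2, CYR1, PDE1 and MSN4 held under every alternative run for them. Of 5 regulators of trehalase and debranching enzyme 0 were called by limma. DCS2 and IGD1, an inhibitor of the debranching enzyme, were the nearest to the threshold, at -0.25 ± 0.08 (adjusted p = 0.084) and -0.19 ± 0.07 (adjusted p = 0.11).

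**Figure D4:**
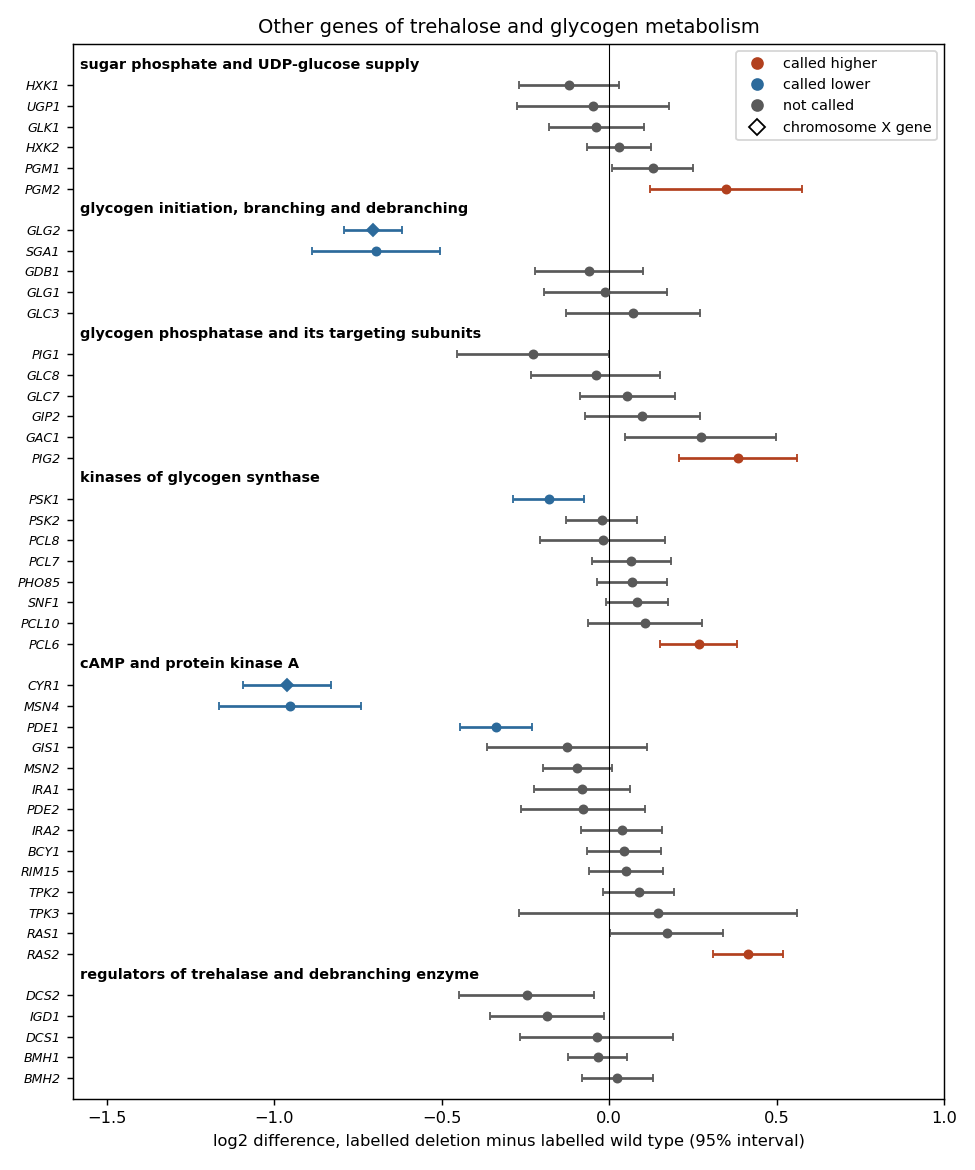
Log2 difference of 44 other genes of trehalose and glycogen metabolism and its control (arrays labelled deletion minus arrays labelled wild type) with 95% intervals, grouped by list; diamonds are chromosome X genes. Calls lie on both sides of 0, with MSN4, CYR1, GLG2 and SGA1 farthest below and RAS2, PIG2 and PGM2 farthest above.

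General stress genes, many of which share Msn2 and Msn4 control with the 10 genes, did not move one way. Of 16 such genes 3 rose and 4 fell in the arrays labelled deletion, a share of 43.8% called beside 21.7% of all genes and 17.3% of those outside chromosome X, where all 16 lie. The membrane-protecting heat-shock gene HSP12 fell by 1.33 (SE 0.07; limma adjusted p = 3.80e-05) and the small heat-shock gene HSP26 rose by 0.80 ± 0.11 (adjusted p = 0.0029). The chaperone gene SSA4 and the wall-linked YGP1 also rose, by 0.32 ± 0.06 and 0.28 ± 0.05. The aldehyde dehydrogenase gene ALD3, the aldose reductase gene GRE3 and the chaperone gene SSA3 fell by 0.34, 0.28 and 0.27. The calls of these last 5 were lost without both arrays numbered 3, and those of SSA4 and YGP1 with median centring (adjusted p up to 0.18 and 0.24). Single arrays also decided some of them: ypr045c_deletion replicate 2 for all but SSA4, wild_type replicates 2 and 3 and ypr045c_deletion replicate 3 for GRE3 and SSA3, and ypr045c_deletion replicate 1 for GRE3. The median of the list was -0.06, beside -0.07 for the 10 genes.

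**Figure D5:**
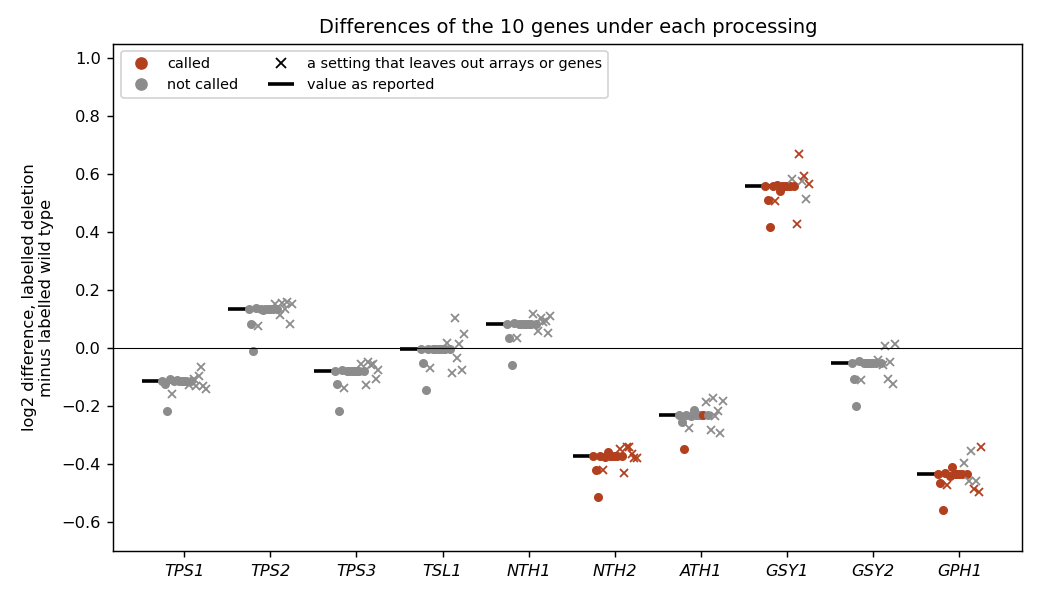
Log2 difference of each of the 10 genes (arrays labelled deletion minus arrays labelled wild type) as reported and under 18 alternatives; crosses mark settings that leave out arrays or chromosome X genes, and red marks a call at an adjusted p of 0.05. NTH2 is called throughout and GSY1 and GPH1 in most settings, while the lowest point of each gene is that of median centring.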

How the data were processed

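Per the labels, total RNA was labelled with biotin for Affymetrix arrays. The authors deposited 1 linear intensity per probe set and array; the labels do not state its summarization, background correction or scaling. There were 10928 probe sets and 30 missing values, none in the 10 genes. Probe sets with a single S. cerevisiae gene (5498) took their names from the platform annotation, updated with RefSeq's R64 gene table. For the 47 genes with several probe sets, the one with the highest mean was used. From the deposited intensity, values were quantile-normalized over all probe sets and taken as log2(intensity + 16); all fold changes refer to that scale and so understate those of dim genes. Groups were compared over 5449 genes in limma 3.58.1 (R 4.3.3; lmFit, eBayes) with group as the only term, and p adjusted by Benjamini-Hochberg (threshold 0.05). Intervals are at 95%. The background limit is the 95th percentile of the means of 1746 S. pombe probe sets.

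The 10 genes, the lists and the alternatives were chosen with earlier results of these data known. Named are the 10 genes, each list gene past the threshold, otherwise up to 4 per list with the smallest p (fewer are given), and the 5 genes most like NTH2; members not called that are named beside called ones, such as GLG1, GLC3, PCL8 and MSN2, were chosen for their role. In a fit tested on simulated data for 5437 genes, 93% of changes of 0.5 and 100% of changes of 1 on the log2 scale were called. Unchanged genes made up 7.21% of the 208 calls. The simulated noise was independent between genes and arrays, and no chromosome was shifted as a whole. It took for each gene the variance that limma had already drawn toward a common value. Simulated variances were thus more alike than measured ones. Only 100 genes were changed at each size, where 1184 were called in the data. These shares therefore may not carry over to the real arrays, whose deviations were correlated. The alternatives were no normalization, median centring, quantile normalization over S. cerevisiae probe sets or without chromosome X genes, pseudocounts of 1 and 64, a robust spread with an intensity trend, dim genes filtered out, averaged probe sets, the replicate number as a block, the arrays numbered 3 as a batch or left out, and each array left out. The number of arrays limits the precision. No probe, promoter or protein sequence was used here.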

Additional observations from a re-analysis of the deposited data

How the results depend on the processing

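Each of the 10 genes was refitted under 18 alternatives, giving 180 differences, of which 172 kept their direction and 163 also their side of the threshold. Some directions were fixed in advance. The dim-gene filter, averaged probe sets, the intensity trend with robust spread, the replicate block and the batch term cannot change these differences. In those settings only the side of the threshold could move. The reversals were small values of genes not called: TPS2 and NTH1 with median centring (-0.0087 and -0.059), TSL1 without both arrays numbered 3 (0.018) and with single arrays left out (-0.087 to 0.10), and GSY2 with single arrays left out (-0.12 to 0.016). Median centring moved the median of all genes by -0.12 and that of the 10 genes to -0.21; relative to all genes TPS2, NTH1, GSY1, NTH2 and GPH1 then stood at 0.07, 0.02, 0.50, -0.43 and -0.48. The number of the 10 genes called was 1 without both arrays numbered 3, where fewer arrays are fitted, and 2 to 3 with single arrays left out. Without chromosome X genes, which also changes the normalization, 718 genes were called, 378 higher and 340 lower. In the fit as reported 889 of the same genes were called, 630 higher and 259 lower. The cause was not tested. Other totals of called genes stayed within 1.5 times, but not their split: over all genes 258 were higher and 858 lower with median centring and 352 and 474 without both arrays numbered 3, against 630 and 554. Over all genes, equal replicate numbers went together across groups only for the arrays numbered 3. Deviations from group means correlated at r = -0.15, -0.03 and 0.61 for numbers 1, 2 and 3. The arrays numbered 1 and 2 correlated best with the other number across groups (0.48 and 0.47). With the replicate number as a block, 4 of the 10 genes were called, ATH1 joining (adjusted p = 0.030), and 1297 of all genes; it ended no call among the 10 but did end those of SSA3 and SUC2.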

Other observations

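Genes known to be repressed by glucose were examined because both stores rise as glucose runs out. Of 12 such genes 1 rose and 3 fell in the arrays labelled deletion, a share of 33.3% called beside 21.7% of all genes and 17.3% of those outside chromosome X, where all 12 lie. The fructose bisphosphatase gene FBP1 fell by 1.16 (SE 0.05; limma adjusted p = 3.38e-05), the isocitrate dehydrogenase gene IDP2 by 0.39 (SE 0.06; adjusted p = 0.0035) and the gluconeogenic PCK1 by 0.19 (SE 0.04; adjusted p = 0.018). The call of PCK1 was lost without wild_type replicate 1 or 3, without ypr045c_deletion replicate 1 or 2 and without both arrays numbered 3 (adjusted p up to 0.077). The invertase gene SUC2 differed by 0.30 ± 0.08 (adjusted p = 0.0497), called under 7 of 18 alternatives and under 1 of the 6 that leave out a single array, without wild_type replicate 1. The median of the list was -0.10.

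The genes outside the lists whose levels over the 6 arrays were most like those of NTH2 were HO (Pearson r = 0.995), YCL049C (0.993), RPT6 (0.991), YNR061C (0.991) and RAD26 (0.990). HO encodes the mating type switching endonuclease, RPT6 a proteasome subunit and RAD26 a DNA repair ATPase on chromosome X. HO differed by -0.45 ± 0.08 between the arrays labelled deletion and wild type. Of 5339 genes 203 reached r = 0.95. These values are a description over arrays that include both groups.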
